A study of Mus musculus with 16 samples.

Results

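The 8 genes described here move iron into a cell, hold it there, release it or set how much of the other products is made: Tfrc, Slc11a2, Steap3, Fth1, Ncoa4, Slc40a1, Aco1 and Ireb2. They were taken by symbol, as genes of iron uptake, storage and export, from 14575 genes tested, with earlier results of these data known. Tfrc was among them because of its fall 4 days after LMB2. The values that chose Tfrc are therefore described without a test here, and so are its other values, since each comparison shares arrays with that one. RNA on polysomes, which are mRNAs loaded with ribosomes, was measured on 16 mouse microarrays in 4 groups of 4. Nphs1-RiboTag mice carry an HA tag on a ribosomal protein where the promoter of the podocyte gene Nphs1 drives Cre, so an antibody to HA pulls down podocyte polysomes. Nphs1-RiboTag-NEP25 mice also express human CD25 on podocytes and received LMB2, a toxin that binds CD25, as 1 injection into a tail vein, at 0.625 ng per gram of mouse. The groups were podocyte RNA of normal mice, podocyte RNA at day 4 and at day 7 after LMB2, and glomerular RNA of normal mice, taken from polysomes that were not precipitated. All mice were on the C57BL/6N background. The series text describes the normal mice as carrying the tag without NEP25, so NEP25 and LMB2 cannot be told apart in a comparison of injured with normal podocytes.

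Cells take up iron mostly as transferrin bound to the transferrin receptor, which Tfrc encodes. In the endosome a reductase such as Steap3 converts the iron to its ferrous form, and Slc11a2, known as DMT1, carries it into the cytosol. Iron that is not used is stored in ferritin, which is built of Fth1 and Ftl1 chains, and Ncoa4 is the receptor that delivers ferritin to lysosomes for release of its iron. Ferroportin, encoded by Slc40a1, is the known iron exporter of mammalian cells, and hepcidin causes its removal from the surface. Aco1 and Ireb2 encode the iron regulatory proteins, which bind iron-responsive elements when iron is scarce. Binding near the start of ferritin and ferroportin mRNA blocks their translation, whereas binding in the tail of Tfrc mRNA protects it from decay. In the kidney, iron handling is best known from the proximal tubule, which recovers filtered transferrin.

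Values are log2 intensities relative to the 75th percentile of each array, so 0 is that percentile, and a gene is not compared with another gene in level. Each of the 8 genes had at least 1 probe, 12 in all, and all 12 were well above background on all 16 arrays. A difference was called at an adjusted p under 0.05, from limma with the Benjamini-Hochberg method across all tested genes. Whether the arrays of a group came from separate animals is not stated, and p-values measure only the spread between samples. A lower value in these bulk samples can come from fewer cells or from less RNA per cell, and the amount of an mRNA cannot be told apart from its share on polysomes. The podocyte label held: all 10 podocyte markers were higher in podocyte than in glomerular RNA, and their summed linear level, in multiples of the 75th percentile, ran from 2750 to 2881 on normal podocyte arrays, from 2377 to 2972 at day 4 and from 1961 to 2542 at day 7, against 805 to 1052 on glomerular arrays. Relative to normal podocytes, 3 of these 10 markers were called lower and 1 higher at day 4, beside 19.9% and 12.3% of all tested genes. At day 7, 7 were lower and 0 higher, beside 36.7% and 21.6%, with a median of -0.89. The arrays of normal mice lay on 1 slide and those of LMB2 mice on the other, each scanned in a run of its own, so slide and treatment cannot be told apart. Day 7 and day 4 arrays filled different rows of their slide, so row and day cannot be told apart either.

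In normal mice, podocyte polysomes carried more Steap3, Aco1, Slc11a2 and Ncoa4 RNA and less Slc40a1 and Fth1 RNA than glomerular polysomes. Of the 7 genes other than Tfrc, 4 were called higher and 2 lower. In this comparison 79.1% of all tested genes were called, 51.6% higher and 27.5% lower, so a count of 6 of 7 lies close to the background. At day 4 after LMB2, 1 of the 7 was called, Ncoa4, which was higher, whereas 32.2% of all tested genes were called, 12.3% higher and 19.9% lower. At day 7, Slc40a1 and Fth1 were called higher and Steap3, Aco1 and Slc11a2 lower than in normal podocytes. These 5 of 7 stand beside 58.3% of all tested genes, 21.6% higher and 36.7% lower. Between the days, Slc40a1 was higher and Steap3 and Aco1 were lower at day 7 than at day 4, 3 of 7 beside 34.0% of all tested genes, 13.2% higher and 20.7% lower. The median difference of the 7 genes was 0.79 in podocyte against glomerular RNA, 0.18 at day 4, 0.13 at day 7 and -0.13 between the days, beside 0.38, -0.12, -0.14 and -0.07 over all tested genes. Scaling by the array median in place of the 75th percentile moved the medians over all tested genes to 0.74, -0.39, -0.48 and -0.14. With that scaling the split of all calls changed from 1799 higher and 2896 lower to 1180 and 5878 at day 4, and from 3153 higher and 5349 lower to 1928 and 7508 at day 7. With the median of the tested genes set to 0, the day 4 split was 2026 higher and 2086 lower.

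**Figure D1:**
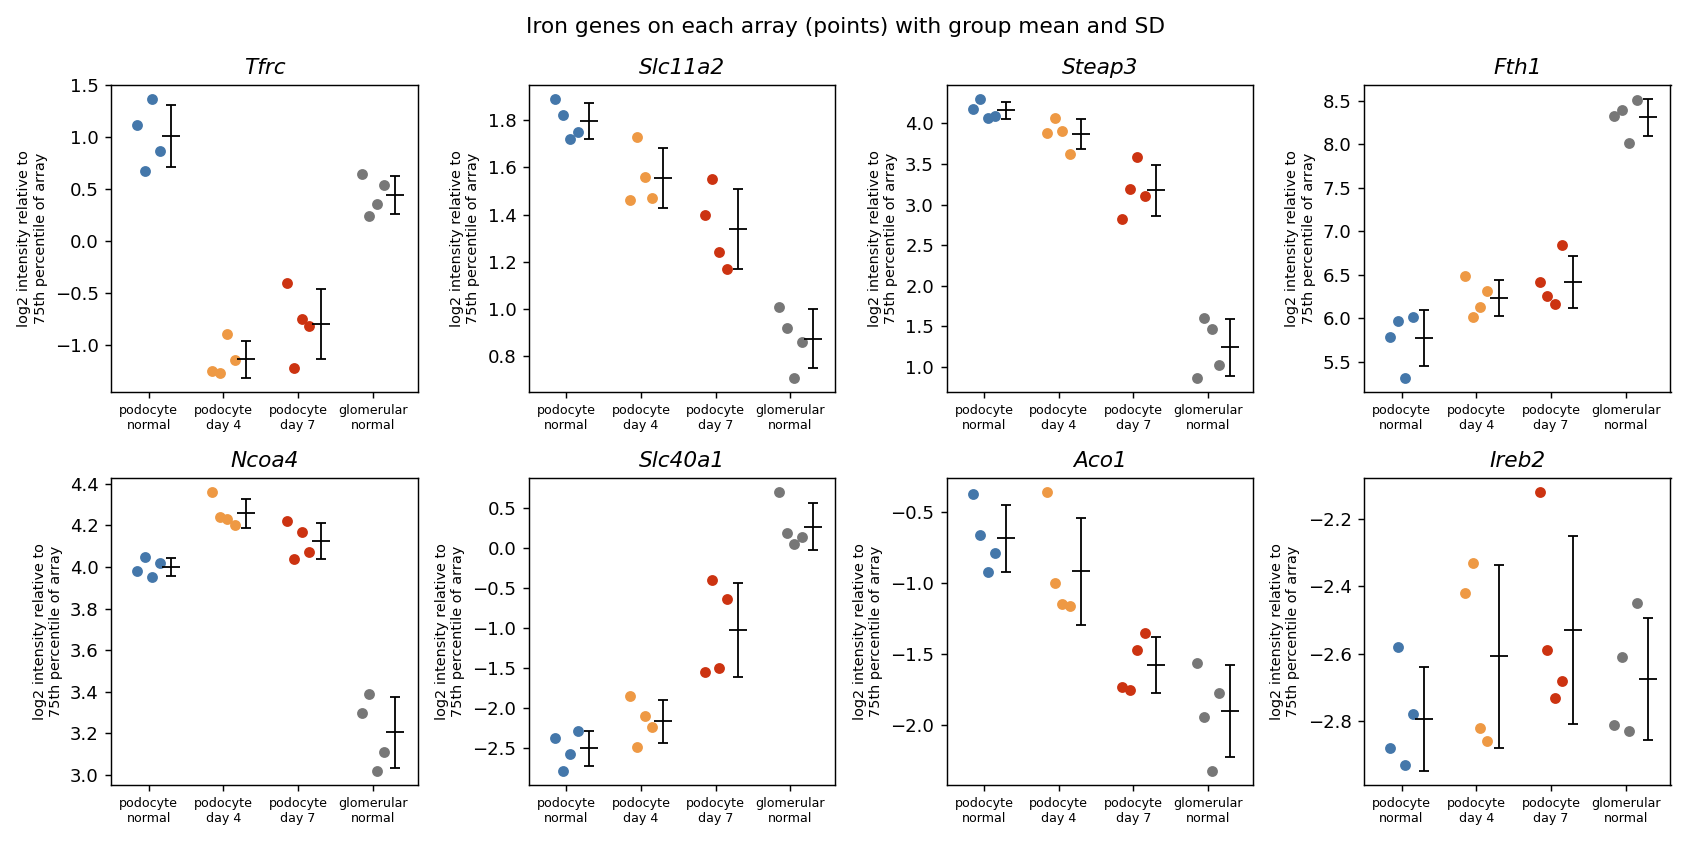
Each panel plots 1 iron gene, with the log2 intensity relative to the array's 75th percentile on the vertical axis and 4 groups on the horizontal axis; points are arrays, and bars are the group mean with its SD (n = 4). Tfrc on all LMB2 arrays lies below all normal podocyte arrays, Slc40a1 at day 7 lies between normal podocytes and glomerular RNA, and Ireb2 overlaps among all groups.

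Tfrc, the receptor for transferrin, was measured by 3 probes. Its brightest probe, A_52_P228236, printed as 10 spots and used for the gene, read 1.12, 0.68, 1.37 and 0.87 on the normal podocyte arrays, -1.25, -1.27, -0.89 and -1.14 at day 4, -0.40, -1.22, -0.75 and -0.82 at day 7, and 0.65, 0.24, 0.36 and 0.54 on the glomerular arrays. All 8 LMB2 arrays were below all 8 arrays of normal mice, the values at the 2 days overlapped, and the highest glomerular array lay just under the lowest normal podocyte array. The day 4 mean was -1.14 ± 0.18, against 1.01 ± 0.30 in normal podocytes (SD, n = 4 each), a log2 difference of -2.15 (SE 0.18), or 4.43-fold lower. At day 7 the mean was -0.80 ± 0.34 (SD, n = 4), which was -1.81 from normal podocytes (SE 0.18) and 0.34 from day 4 (SE 0.18). Normal podocytes were 0.56 above glomerular RNA, whose mean was 0.45 ± 0.18 (SD, n = 4). The order of the 4 group means on this probe was therefore normal podocytes, glomerular RNA, day 7 and day 4. On this probe day 7 and day 4 were not separated by their spread. Among genes above background on all 8 arrays compared at day 4, the differences next to that of Tfrc were -2.15 for Hoxd9 and -2.28 for Kap on the larger side and -2.06 for Cyp2e1 on the smaller side, and Kap and Cyp2e1 had standard errors of 1.40 and 1.32.

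The other Tfrc probes were also lower at day 4, by less. A_65_P06446 read 0.42, 0.20, 0.36 and 0.31 on the normal podocyte arrays, -1.00, -1.02, -0.44 and -0.75 at day 4, -0.02, -0.04, 0.34 and -0.37 at day 7, and -0.24, -0.45, -0.73 and -0.23 on the glomerular arrays. Its day 4 arrays all lay below its normal podocyte arrays, whereas 1 of its day 7 arrays lay inside the normal range. The differences of this probe were -1.13 at day 4 and -0.34 at day 7 from normal podocytes, and 0.78 between day 7 and day 4 (SE 0.17 each). A_51_P167876, the dimmest of the 3, read -3.07, -3.02, -2.71 and -3.32 on the normal podocyte arrays, -3.99, -3.64, -3.40 and -3.95 at day 4, -2.96, -3.13, -3.31 and -3.53 at day 7, and -4.13, -3.83, -3.57 and -3.22 on the glomerular arrays. Its day 4 arrays were all below its normal podocyte arrays, by -0.71 on average, and its day 7 arrays overlapped them, at -0.20 on average (SE 0.20 each). The 3 probes thus had the same direction at both days but differed in how far Tfrc was from normal at day 7, between -1.81 and -0.20. Unlike the brightest probe, both other probes ordered the group means as normal podocytes, day 7, glomerular RNA and day 4. On A_65_P06446 every day 7 array, the lowest at -0.37, was above every day 4 array, the highest at -0.44. With the mean of the 3 probes in place of the brightest, the differences from normal podocytes were -1.33 at day 4 and -0.78 at day 7. A background correction by normexp gave -1.71 and -1.47.

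**Figure D2:**
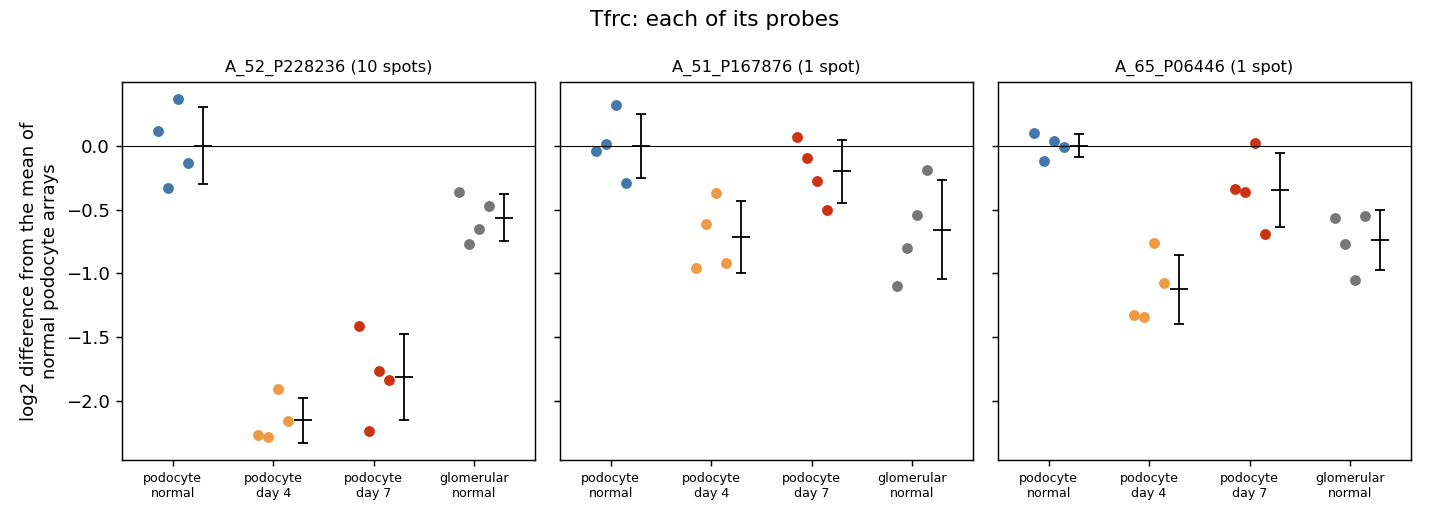
Each panel plots 1 of the 3 Tfrc probes, with the log2 difference from the mean of the normal podocyte arrays on the vertical axis and the 4 groups on the horizontal axis; points are arrays, and bars are the group mean with its SD (n = 4). All 3 probes are lowest or near their lowest at day 4, and only A_52_P228236 stays far below normal at day 7.

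Tfrc lies on the forward strand of chromosome 16 in RefSeq's GRCm38.p6 annotation. The first of its promoter windows is shown because Tfrc had the widest difference of the 8 genes at day 4. This window runs from upstream to just past its annotated start, chr16:32608646-32608945, with motif matches in capitals. The sequence, from RefSeq, is given 5′ to 3′.
Tfrc promoter: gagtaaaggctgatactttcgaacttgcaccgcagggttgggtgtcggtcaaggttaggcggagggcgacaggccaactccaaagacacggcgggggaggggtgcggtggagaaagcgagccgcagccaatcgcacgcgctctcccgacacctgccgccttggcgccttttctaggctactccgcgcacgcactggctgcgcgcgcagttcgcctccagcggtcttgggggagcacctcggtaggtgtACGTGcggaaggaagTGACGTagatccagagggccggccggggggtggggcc
The 2 matches are ACGTG, the core bound by hypoxia-inducible factors, and TGACGT, a site like that bound by the CREB family. In this window ACGTG spans the annotated start and TGACGT lies just downstream of it. A second Tfrc window, chr16:32608872-32609171, holds the same 2 matches at positions 23 and 38 of 300, near its upstream end. Both strands were searched for these motifs, for the E-box CACGTG, which contains ACGTG, and for the AP-1 site TGACTCA. Of 32851 RefSeq promoter windows of the same length, 19.6% held ACGTG, 7.51% TGACGT, 7.15% CACGTG and 5.20% TGACTCA. For 6 of the 8 genes RefSeq promoters were matched, 13 windows in all, and of the other 5 genes Ncoa4 alone held a match, ACGTG. A match describes letters in a window and was not tested as a site.

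Steap3, the reductase that works on endosomal iron, was the member with the widest excess in podocytes. It read 4.18, 4.30, 4.06 and 4.09 on the normal podocyte arrays, 3.88, 4.07, 3.90 and 3.62 at day 4, 2.82, 3.19, 3.58 and 3.10 at day 7, and 0.87, 1.60, 1.47 and 1.03 on the glomerular arrays. The glomerular arrays were far below all podocyte arrays, day 7 was below day 4 without overlap, and day 4 overlapped normal podocytes at 1 array. The podocyte mean was 4.16 ± 0.11, against 1.24 ± 0.35 in glomerular RNA (SD, n = 4 each), a difference of 2.91 (SE 0.18, 7.53-fold, limma's adjusted p = 3.18e-09). Relative to normal podocytes Steap3 fell by 0.98 at day 7 (SE 0.18, 1.97-fold lower, adjusted p = 2.56e-04), where the mean was 3.17 ± 0.31 (SD, n = 4). At day 4 the mean was 3.87 ± 0.19 and the difference of -0.28 was not called (adjusted p = 0.238, 95% interval -0.66 to 0.09). Between day 7 and day 4 the difference was -0.70 (SE 0.18, adjusted p = 0.00765). A second probe, A_55_P2096887, gave 2.44 for podocyte minus glomerular RNA, and -0.21, -0.85 and -0.64 for day 4 minus normal, day 7 minus normal and day 7 minus day 4. Both Steap3 probes thus ordered the groups as normal podocytes, day 4, day 7 and glomerular RNA. The summed podocyte markers were also lower at day 7 than in normal podocytes, 1961 to 2542 against 2750 to 2881. Of these 10 markers, 7 were called lower at day 7, with a median of -0.89, beside 36.7% of all tested genes. Between day 7 and day 4, 7 were lower, with a median of -0.62, beside 20.7% of all tested genes. The part of these markers in the Steap3 difference was not tested.

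Slc11a2, the endosomal ferrous iron transporter, had the same order of group means on its brighter probe, A_51_P388737. This probe read 1.89, 1.82, 1.72 and 1.75 on the normal podocyte arrays, 1.46, 1.73, 1.56 and 1.47 at day 4, 1.40, 1.55, 1.24 and 1.17 at day 7, and 1.01, 0.92, 0.71 and 0.86 on the glomerular arrays. Every glomerular array was below every podocyte array, the day 7 arrays were all below the normal ones, and day 4 overlapped both its neighbours. Podocytes had 1.80 ± 0.08, against 0.87 ± 0.13 in glomerular RNA (SD, n = 4 each), a difference of 0.92 (SE 0.10, 1.90-fold, adjusted p = 1.05e-06). At day 7 Slc11a2 fell by 0.46 relative to normal podocytes (SE 0.10, 1.37-fold lower, adjusted p = 0.00133). The day 4 difference was -0.24 (SE 0.10) and was not called (adjusted p = 0.0842), nor was that of -0.22 between the days (adjusted p = 0.111). With array medians set to 0, the day 4 differences of Slc11a2 and Steap3 were called, at -0.51 and -0.55. The dimmer Slc11a2 probe, A_52_P254298, went the other way after LMB2, with 0.33 at day 4, 0.44 at day 7 and 0.11 between the days (SE 0.15 each). The mean of both probes gave -0.01 at day 7, so the lower Slc11a2 call at day 7 rests on 1 probe. Its excess in podocytes over glomerular RNA had the same sign on both probes, at 0.17 for the dimmer one.

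Fth1, the ferritin heavy chain that oxidises iron for storage, was lower in podocyte than in glomerular polysomes and higher after LMB2. It read 5.79, 5.97, 5.32 and 6.02 on the normal podocyte arrays, 6.49, 6.02, 6.13 and 6.31 at day 4, 6.42, 6.26, 6.16 and 6.84 at day 7, and 8.32, 8.39, 8.01 and 8.51 on the glomerular arrays. All LMB2 arrays reached or passed the highest normal podocyte array, the 2 days overlapped, and the glomerular arrays were above all others. The podocyte mean was 5.77 ± 0.32, against 8.31 ± 0.21 in glomerular RNA (SD, n = 4 each), a difference of -2.54 (SE 0.18, 5.80-fold lower, adjusted p = 1.44e-08). At day 7 Fth1 rose by 0.65 to 6.42 ± 0.30, against 5.77 ± 0.32 in normal podocytes (SE 0.18, 1.57-fold, adjusted p = 0.00684). The day 4 mean was 6.24 ± 0.21 and the difference of 0.46 was not called (SE 0.18, adjusted p = 0.0635), although it was with the median of the tested genes set to 0, at 0.54. Between day 7 and day 4 the difference was 0.18, with a 95% interval from -0.21 to 0.57. Scaling by the array median kept Fth1 higher at day 7 but ended the call, at 0.31.

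The partner chain Ftl1, which promotes the mineral core of ferritin, was measured beside Fth1 and moved more clearly. It read 6.75, 6.59, 6.38 and 6.49 on the normal podocyte arrays, 7.26, 7.00, 7.35 and 7.61 at day 4, 7.62, 7.89, 7.70 and 7.92 at day 7, and 8.63, 8.51, 8.57 and 8.60 on the glomerular arrays. The 4 groups did not overlap. Ftl1 was lower in podocyte than in glomerular RNA, at -2.02 (SE 0.12, adjusted p = 3.14e-09). Relative to normal podocytes it rose by 0.75 at day 4 (adjusted p = 3.29e-04) and by 1.23 at day 7 (adjusted p = 1.27e-06). Day 7 exceeded day 4 by 0.48 (adjusted p = 0.00833). That call was lost with array medians set to 0, at 0.41, and when same-numbered arrays were fitted as a block, at 0.48.

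Ncoa4, the receptor that takes ferritin to lysosomes, read 3.98, 4.05, 3.95 and 4.02 on the normal podocyte arrays, 4.36, 4.24, 4.23 and 4.20 at day 4, 4.22, 4.04, 4.17 and 4.07 at day 7, and 3.30, 3.39, 3.02 and 3.11 on the glomerular arrays. Day 4 lay above normal podocytes without overlap, day 7 lay between and overlapped both, and the glomerular arrays were all lower. Podocytes had 4.00 ± 0.04, against 3.20 ± 0.17 in glomerular RNA (SD, n = 4 each), a difference of 0.79 (SE 0.09, 1.73-fold, adjusted p = 1.12e-06). At day 4 Ncoa4 was 4.26 ± 0.07 (SD, n = 4) and higher than normal by 0.26 (SE 0.09, 1.20-fold, adjusted p = 0.0351), but this call was lost when any of 7 single arrays was left out and the difference was -0.01 with array medians set to 0. The differences of 0.13 at day 7 (adjusted p = 0.233) and -0.13 between the days (adjusted p = 0.261) were not called. At day 7 Ncoa4 was called higher under quantile normalization, at 0.27 without and 0.24 with normexp, and with the median of the tested genes set to 0, at 0.24. It had -0.21 with array medians set to 0.

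Slc40a1, which encodes ferroportin, had the largest shift of the tested members after LMB2. It read -2.37, -2.78, -2.57 and -2.28 on the normal podocyte arrays, -1.84, -2.48, -2.09 and -2.23 at day 4, -1.54, -0.40, -1.50 and -0.63 at day 7, and 0.70, 0.19, 0.05 and 0.14 on the glomerular arrays. Day 7 lay above both earlier podocyte groups and below glomerular RNA without overlap, day 4 overlapped normal podocytes, and the day 7 arrays fell into a lower and a higher pair. Podocytes had -2.50 ± 0.22, against 0.27 ± 0.29 in glomerular RNA (SD, n = 4 each), a difference of -2.77 (SE 0.25, 6.83-fold lower, adjusted p = 1.32e-07). At day 7 Slc40a1 was -1.02 ± 0.59, against -2.50 ± 0.22 in normal podocytes, a rise of 1.48 (SE 0.25, 2.79-fold, adjusted p = 1.39e-04). The day 4 difference was 0.34 and was not called (adjusted p = 0.322, 95% interval -0.19 to 0.87). Day 7 exceeded day 4 by 1.14 (SE 0.25, 2.21-fold, adjusted p = 0.00305). With a single array left out in turn, the day 7 rise ran from 1.28 to 1.65 and kept its call, and the lowest value over all settings was 0.73, under normexp with quantile normalization. That setting gave -1.72 for podocyte minus glomerular RNA and 0.61 between the days.

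Markers of cells other than podocytes were set beside the Slc40a1 values, because glomerular RNA held more of it. The summed leukocyte and macrophage markers, 9 of 10 tested, ran from 6.63 to 10.1 at day 7 and from 6.73 to 10.1 in normal podocytes, against 17.5 to 39.3 in glomerular RNA, and Lyz2 and Adgre1 were the 2 of these 9 that were well above background on no day 7 array. Relative to normal podocytes 1 of the 9 was called higher at day 7 and none lower by limma, with a median of 0.21 and a highest difference of 2.70. Summed endothelial markers were 45.7 to 70.9 at day 7 and 48.2 to 94.1 in normal podocytes, against 739 to 906 in glomerular RNA. Proximal tubule markers were 20.03 to 53.4 on 3 of the day 7 arrays and 278 on replicate 4, against 37.7 to 145 in normal podocytes, and without day 7 replicate 4 the Slc40a1 rise was 1.35. The summed mesangial and smooth muscle markers were 801 to 1093 at day 7 and 25.9 to 37.7 in normal podocytes, against 141 to 210 in glomerular RNA. Of these 10 markers, 3 were called higher at day 7 and 7 were not called, with a median difference of 0.28 and a highest of 6.01. Their part in the Slc40a1 difference was not tested.

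Aco1, which encodes iron regulatory protein 1 and acts as cytosolic aconitase when it holds an iron-sulfur cluster, read -0.37, -0.66, -0.92 and -0.79 on the normal podocyte arrays, -0.36, -1.00, -1.15 and -1.16 at day 4, -1.73, -1.75, -1.47 and -1.35 at day 7, and -1.56, -1.94, -2.32 and -1.77 on the glomerular arrays. Day 7 was below both earlier podocyte groups and overlapped glomerular RNA, and day 4 overlapped normal podocytes because replicate 1 stood above the other 3 arrays. Podocytes had -0.68 ± 0.23, against -1.90 ± 0.32 in glomerular RNA (SD, n = 4 each), a difference of 1.21 (SE 0.20, 2.32-fold, adjusted p = 5.33e-05). At day 7 the mean was -1.58 ± 0.20 and Aco1 fell by 0.89 relative to normal podocytes (SE 0.20, 1.85-fold lower, adjusted p = 0.00135). The day 4 difference was -0.23 and was not called (adjusted p = 0.404). Day 7 was lower than day 4 by -0.66 (SE 0.20, adjusted p = 0.0187). That call was lost without day 4 replicate 1, at -0.47, and without day 7 replicate 2, at -0.60. After normexp with the 75th percentile the 3 called Aco1 differences were 0.79, -0.49 and -0.40. Day 4 replicate 1 also had the highest proximal tubule markers of its group, 174 against 15.01 to 34.2 on the other arrays, and the highest erythroid markers, 49.2 against 4.56 to 11.2. On the glomerular arrays, where Aco1 had its lowest mean, the tubule markers were 471 to 1005 and the erythroid markers 151 to 524. The part of these markers in the Aco1 value of that array was not tested.

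Ireb2, which encodes iron regulatory protein 2, read -2.88, -2.58, -2.93 and -2.78 on the normal podocyte arrays, -2.42, -2.33, -2.82 and -2.86 at day 4, -2.12, -2.59, -2.73 and -2.68 at day 7, and -2.81, -2.61, -2.83 and -2.45 on the glomerular arrays. All 4 groups overlapped. None of its differences was called by limma. They were -0.12 for podocyte minus glomerular RNA (95% interval -0.45 to 0.22), 0.18 at day 4 (-0.15 to 0.52), 0.26 at day 7 (-0.08 to 0.60) and 0.08 between the days (-0.26 to 0.41). The adjusted p-values were 0.504, 0.404, 0.172 and 0.748, and normexp with the 75th percentile called the day 7 difference, at 0.28. Fbxl5, the ubiquitin ligase subunit that removes iron regulatory protein 2 when iron is plentiful, was higher in podocyte than in glomerular RNA by 1.01 (SE 0.14, adjusted p = 1.28e-05). It fell by 0.67 at day 4 (adjusted p = 0.00244) and by 0.61 at day 7 (adjusted p = 0.00189) relative to normal podocytes.

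**Figure D3:**
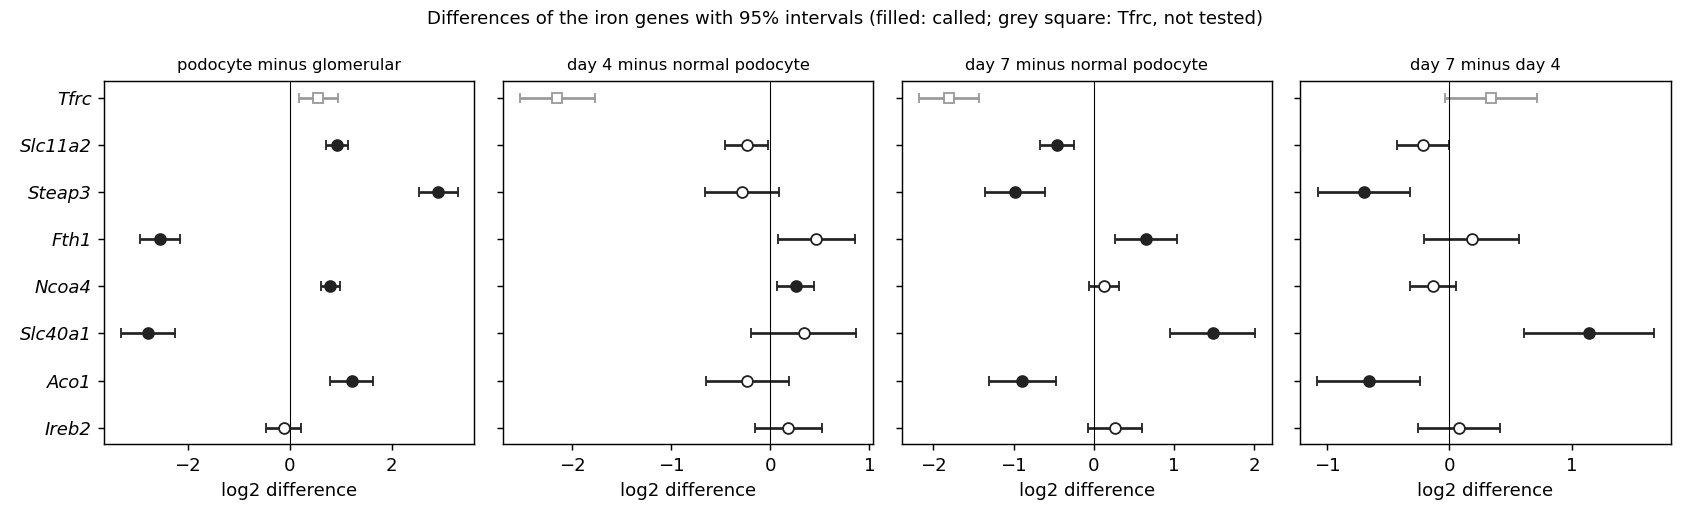
Each panel shows 1 comparison, with the log2 difference on the horizontal axis and the 8 genes down the vertical axis; points are differences, and bars are 95% intervals from limma. Filled points were called and grey squares mark Tfrc, which was not tested. The intervals drawn for Tfrc are no test either, because its day 4 fall chose it and each comparison shares arrays with that one. At day 4 Ncoa4 at 0.26 is the 1 filled point, while at day 7 Slc40a1 and Fth1 lie to the right and Steap3, Aco1 and Slc11a2 to the left.

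The wider pathway was followed in 85 other iron genes, of which 77 could be tested. In podocyte against glomerular RNA 38 were higher and 21 lower, near the 51.6% and 27.5% of all tested genes, and under quantile normalization 27 were higher and 29 lower. At day 4, 14 were higher and 18 lower than in normal podocytes, beside 12.3% and 19.9% of all tested genes. At day 7, 21 were higher and 33 lower, beside 21.6% and 36.7%. With array medians set to 0 these became 13 and 31 at day 4 and 12 and 43 at day 7. Between the days 9 were higher and 16 lower at day 7, beside 13.2% and 20.7% of all tested genes, or 10 and 11 after normexp and quantile normalization. The median difference of the 77 was 0.27, -0.12, -0.22 and -0.01 in these comparisons. It is set beside the medians over all tested genes, 0.38, -0.12, -0.14 and -0.07.

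By role, all 4 tested genes of export and iron oxidation, Heph, Cp, Flvcr1 and Abcg2, were lower in podocyte than in glomerular RNA, as Slc40a1 was, beside 27.5% of all tested genes. Of these, Cp, a ferroxidase that works with ferroportin, rose by 1.96 at day 7 (adjusted p = 4.45e-04) and Abcg2, a porphyrin exporter, by 0.91 (adjusted p = 0.0283), with 1.29 and 1.04 between day 7 and day 4. The calls between the days were lost without day 7 replicate 1 (1.03) or 2 (1.12) for Cp, and without day 7 replicate 4 (0.81) or day 4 replicate 2 (0.86) or 3 (1.01) for Abcg2. Of 20 mitochondrial iron and iron-sulfur genes, 14 were higher and 2 lower in podocytes, beside 51.6% and 27.5% of all tested genes, among them the iron-sulfur carrier Nfu1 at 1.53. At day 4, 10 of the 20 fell and 1 rose, beside 19.9% lower and 12.3% higher over all tested genes, and at day 7, 13 fell and 1 rose, beside 36.7% and 21.6%. Among those that fell were Isca1, with -0.75 at day 4 and -1.08 at day 7, Isca2, with -0.83 at day 4, and the co-chaperone Hscb, with -1.00 at day 7. The gene that rose was the ferredoxin Fdx2, by 1.25 at day 4. The importer Slc25a37, mitoferrin 1, was lower at day 7 than at day 4, at -1.06. Of 13 genes of haem synthesis and breakdown, 8 were higher and 1 lower in podocytes, 1 was higher and 3 lower at day 4, and 3 were higher and 6 lower at day 7. The shares over all tested genes were 51.6% higher and 27.5% lower, 12.3% and 19.9%, and 21.6% and 36.7% in these comparisons. The gene lower in podocytes was Alas2, the erythroid enzyme of haem synthesis, at -3.91, or -1.95 under normexp with quantile normalization. Alad, which acts early in haem synthesis, fell by 1.12 at day 7, and Hmox1, which degrades haem and frees its iron, was 0.62 higher in podocytes (adjusted p = 0.00257). That call was lost under quantile normalization, at 0.29 both without and with normexp (adjusted p = 0.130 and 0.117). Its difference from normal podocytes was 0.41 at day 4 (adjusted p = 0.0659, not called) and 0.46 at day 7 (adjusted p = 0.0239), a call lost when any of 5 single arrays was left out and, at 0.12, with array medians set to 0.

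Of 10 tested genes of transferrin, haem and protein uptake, 1 was higher and 5 were lower in podocytes, beside 51.6% and 27.5% of all tested genes. The haem scavenger Hpx had the largest rise in this group. It read -7.53, -7.18, -6.77 and -2.77 on the normal podocyte arrays, 0.37, 0.72, 1.42 and 1.85 at day 4, and 1.93, 1.56, 1.46 and 1.00 at day 7. Only 1 of the 4 normal arrays was well above background for Hpx, and the fitted rises were 7.15 at day 4 and 7.55 at day 7. Under normexp with quantile normalization they were 3.38 and 3.76. Cubn, an endocytic receptor that is also among the proximal tubule markers, was lower in podocytes by -3.61, and Tfr2, the second transferrin receptor, was at least 10.3-fold lower. Slc22a17, a receptor for lipocalin 2, fell by 1.30 at day 7. Of the 8 reductases and metal transporters, 4 were higher and 3 lower in podocytes, beside 51.6% and 27.5% of all tested genes, and 2 rose and 1 fell at day 4, beside 12.3% and 19.9%. Slc11a1, the phagosomal transporter, was at least 14.7-fold lower in podocyte than in glomerular RNA and at least 2.88-fold higher at day 4 than in normal podocytes, a call lost under normexp with quantile normalization, at 0.49.

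Among 5 tested hepcidin and signalling genes, 2 rose at day 4, beside 12.3% of all tested genes, and 2 rose and 2 fell at day 7, beside 21.6% and 36.7%. Hamp, which encodes hepcidin, was well above background on no normal array, 2 of 4 day 4 arrays and all 4 day 7 arrays. It was called higher at day 4, with no size given here because no normal array was well above background, and was at least 1.54-fold higher at day 7 than in normal podocytes. Under normexp with quantile normalization the Hamp difference was 0.40 on the log2 scale at each day. Hamp2 was well above background on 1 of 4 normal arrays and had a fitted rise of 2.85 at day 7, or 0.61 under the same setting. Hfe, which binds the transferrin receptor, fell by 0.89 at day 7, and Bmp6, a ligand that induces hepcidin, was lower in podocyte than in glomerular RNA, at -3.92. The 7 regulators had 3 genes higher and 2 lower at day 4, beside 12.3% and 19.9% of all tested genes, and 4 higher and 3 lower at day 7, beside 21.6% and 36.7%. Zc3h12a, an endonuclease known in mouse to cleave Tfrc mRNA, read -3.62, -3.90, -3.88 and -4.25 on the normal podocyte arrays, -2.78, -2.19, -1.63 and -0.92 at day 4, and -1.25, -1.63, -1.43 and -1.41 at day 7. Every LMB2 array was above every normal podocyte array, and it rose by 2.03 at day 4 (adjusted p = 1.06e-04) and by 2.48 at day 7 (adjusted p = 5.76e-06). Under normexp with quantile normalization Zc3h12a kept its calls, at 0.78 and 1.06. Myc, a transcription factor, had fitted rises of 3.24 at day 4 and 4.41 at day 7, with 1 of 4 normal arrays well above background, and 0.71 and 1.35 under normexp with quantile normalization. Epas1, the hypoxia-inducible factor with an iron-responsive element, was lower in podocyte than in glomerular RNA, at -2.35. It fell by 0.72 at day 4 (adjusted p = 0.00486) and by 0.55 at day 7 (adjusted p = 0.0122), whereas the mean of its probes gave -0.20 and 0.00. Of 4 genes of lipid peroxide defence and of its lipid substrates, all were higher in podocytes, beside 51.6% of all tested genes, among them Acsl4 by 1.63 and Aifm2 by 1.44. Aifm2 fell by 0.96 at day 4, and Slc3a2, a chain of the cystine transporter, was lower at day 7 than at day 4 by -1.16.

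**Figure D4:**
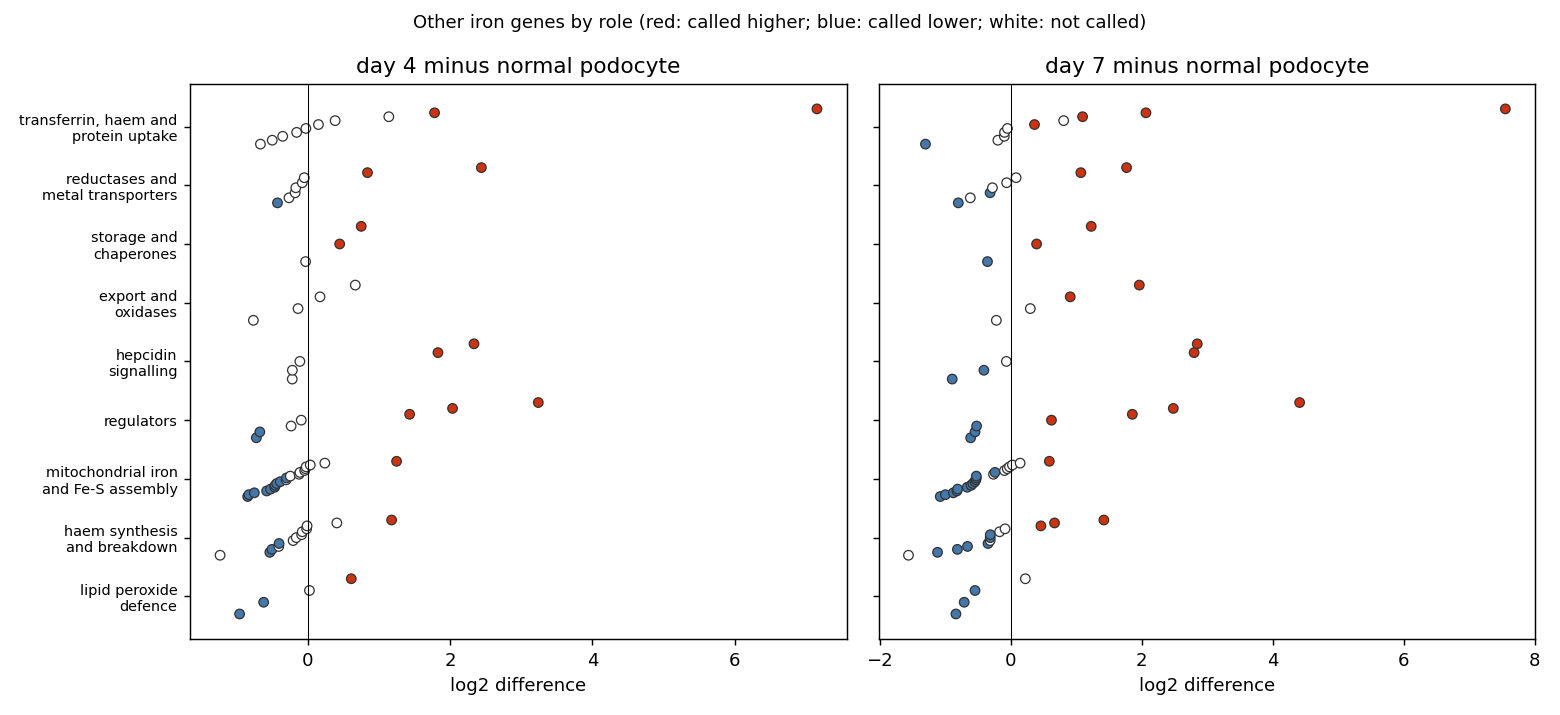
Each point is 1 of the other iron genes, grouped down the vertical axis by role, with the log2 difference from normal podocytes at day 4 (left) and day 7 (right) on the horizontal axis; red points were called higher, blue points lower and white points not called. Most called mitochondrial genes lie left of 0, 10 of 20 at day 4 and 13 of 20 at day 7, and Hpx stands far right at 7.15 and 7.55.

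The genes were also grouped by where the iron-responsive element of the mRNA is known to lie. Of 6 with the element before the coding sequence, 3 were higher at day 7, Fth1, Ftl1 and Slc40a1, and 2 were lower, among them Epas1. Over all tested genes 21.6% were higher and 36.7% lower. Alas2 was not called. Of 3 with the element after the coding sequence, Slc11a2, Cdc14a and Cdc42bpa, all were higher in podocytes, beside 51.6% of all tested genes. The Cdc14a difference was 2.23. At day 7, Slc11a2 and Cdc14a were lower and Cdc42bpa was higher, beside 36.7% lower and 21.6% higher over all tested genes. The Slc11a2 call rests on its brighter probe, and the mean of both its probes gave -0.01. Tfrc belongs to this group and was left out of its counts.

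The 5 tested genes nearest to Tfrc in profile over the 16 arrays were Rundc1, Kctd6, Rab28, Psap and Pctp. Only the brightest Tfrc probe, A_52_P228236, entered this ranking. The other Tfrc probes, at -0.34 and -0.20 from normal podocytes at day 7, were not used, so the ranking holds for that probe alone. Likeness was the root mean square difference after each gene's own mean was subtracted, which was 0.380 for Rundc1 and Kctd6, 0.419 for Rab28, 0.421 for Psap and 0.444 for Pctp. The median over all tested genes was 1.05, and the nearest of the other iron members was Slc11a2 at 0.972. The means of Rundc1 were 1.06 in normal podocytes, -0.62 at day 4 and -0.78 at day 7, against 0.24 in glomerular RNA.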

How the data were processed

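Labelled RNA was hybridised to 1-colour Agilent arrays designed on mouse build mm9 and read with Feature Extraction 11.5.1.1, per the file headers, and the deposited files hold a processed intensity per spot, background-subtracted on a linear scale, with flags for spots well above background. The authors' value table holds deposited log2 values of 39430 probes, each column an exact shift of 1 array's log2 intensity, with column medians from -3.17 to -2.51. The normalization behind that shift is not given in the sources used here. In 6 columns the values were those of a different replicate in that group, so the table served as an alternative only.

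Control and outlying spots were left out, log2 intensities of spots of a probe were averaged over 55681 probes, and each array's 75th percentile was subtracted (227 to 415 in linear intensity). Per array 49.3% to 57.5% of 59305 spots were well above background and none was saturated. The number of arrays limits the precision. Unversioned accessions matched the RefSeq gene table of GRCm38.p6 for 26582 probes, each with 1 symbol (20145 genes), and 29099 had none. Another filter removed 106 probes that lacked a value somewhere. A probe was kept if some group had it well above background on all 4 arrays (19060 kept), and the kept probe with the highest mean stood for the gene.

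All 16 arrays entered 1 limma 3.58.1 model (R 4.3.3, Python 3.11.15) with group as the only term and 12 residual degrees of freedom. The same fit was also run on simulated arrays with known changes, whose noise was drawn independently for each array. Where 1 group had a gene above background on all its arrays and the other on none, a bound is given. It divides the bright mean by the dim probe's value or, if higher, by the lowest signal well above background on that array. Named genes were the 8 members, up to 5 called other iron genes per direction and comparison, Ftl1, Hmox1, Epas1, Zc3h12a and Fbxl5, and the 5 genes nearest to Tfrc. Some genes of the lists, among them one that this rule names, are not reported here. The members and lists were chosen with earlier results of these data known. Same-numbered podocyte and glomerular arrays of normal mice deviated together (correlations 0.42, 0.45, 0.46 and 0.51), so they were also fitted as pairs. In the other comparisons the correlations ran from -0.41 to 0.49, and not every pair was over 0.1, so their numbers were not taken as pairs. Alternatives covered scaling, background correction, the filter, the probe rule, the arrays fitted and each array left out.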

Additional observations from a re-analysis of the deposited data

Results flagged for a closer look

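Steap3, Slc40a1 and Aco1 differed between day 7 and day 4 after LMB2 by limma's test of the difference, with -0.70, 1.14 and -0.66. These are the differences between the days given above, where row on the slide and day cannot be told apart. With same-numbered arrays fitted as a block, Steap3 kept its call and Slc40a1 and Aco1 lost theirs. The same test separated the days for Abcg2 (1.04), Cp (1.29), Fdx2 (-0.66), Ftl1 (0.48), Hamp2 (1.02), Hfe (-0.68), Myc (1.17), Rc3h1 (0.71), Slc22a17 (-0.95), Slc25a37 (-1.06) and Slc3a2 (-1.16), where a positive value means higher at day 7. The Fdx2 call was lost without day 4 replicate 3 (-0.54) or 4 (-0.52), and the Myc call without day 4 replicate 1 (1.1) or 2 (1.00) or day 7 replicate 1 (0.91) or 2 (1.18). Slc3a2 was higher than normal at day 4, by 0.61, and lower at day 7, by -0.55.

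A sample stood far from the other 3 of its group in 4 of 156 groups checked with Dixon's test, which flags about 1 in 20 by chance. Hpx was -2.77 on normal podocyte replicate 4, where the others ran from -7.53 to -6.77. That array also had the highest proximal tubule markers of its group, 145 against 37.7 to 56.4, and their part in the value was not tested. Hmox1 was 3.35 on normal podocyte replicate 3, above 2.57 to 2.70 on the others. Abcg2 was 3.71 on glomerular replicate 3, below 4.72 to 4.77, and Cubn was 1.96 on the same array, below 3.29 to 3.54.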

How the results depend on the processing

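For the 7 members other than Tfrc, 28 differences were recomputed 791 times. Of these 759 stayed on the same side of the threshold, 19 lost a call, 12 gained one and 1 reversed, Ncoa4 at day 4 (-0.01 with array medians set to 0). A change of sign was counted as a reversal only where either fit was called, so the 759 include uncalled differences that changed sign. With array medians set to 0, Ireb2 in podocyte against glomerular RNA went from -0.12 to 0.24. Ncoa4 at day 7 went from 0.13 to -0.21 in that setting. Of 1598 values for 57 results of other named genes, 1555 were unchanged in this sense, 38 lost a call, 4 gained one and 1 reversed, Epas1 at day 7 (0.00 with the mean of its probes). The single member called at day 4 was Ncoa4, which was higher. With array medians set to 0 the called members were 2 others, Slc11a2 and Steap3, both lower, and Ncoa4 was not called. With the median of the tested genes set to 0 they were Ncoa4 and Fth1, both higher. The count was 0 with normexp and the 75th percentile, the authors' value table, no filter or the replicate block. It was also 0 without day 4 replicate 1 and normal podocyte replicate 4. That alternative and the tested-gene median were chosen after seeing the data. The count in either direction ran from 0 to 2 with 1 array left out. All genes called at day 4 went to 7058 with array medians set to 0, from 4695. The cause was not tested.

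The replicate block changed no member call for podocyte against glomerular RNA. In the other comparisons same-numbered arrays share only a number (correlations -0.41 to 0.49). There the block, with fewer arrays and residual degrees of freedom, gave 21 of 32 other iron genes and 2310 genes in all at day 4. Between day 7 and day 4 it gave 1 of 3 members, 10 of 25 other iron genes, and 3063 genes against 4951. Slc40a1 between the days then had adjusted p = 0.0731 and Aco1 0.0964. With 1 array left out, 27 to 33 other iron genes were called at day 4 and 19 to 25 between the days.

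Tfrc kept its sign, from -2.42 to -1.33 at day 4 and from -2.14 to -0.78 at day 7. Slc11a1 at day 4 lost its call under normexp with quantile normalization, at 0.49. A slide block was not run, because podocyte and glomerular arrays of normal mice share a slide and the other comparisons hold a group per slide or lie within one. Signal over background limits Hpx, Myc, Hamp, Hamp2, Tfr2 and Slc11a1 in normal podocytes.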
